A study of Mus musculus with 3 samples.

Results

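The survival genes of the BCL2 family, whose proteins hold back the mitochondrial route of cell death, were examined in Ba/F3 cells. The set is Mcl1, Bcl2, Bcl2l1, Bcl2l2, Bcl2a1a, Bcl2a1b, Bcl2a1d and Bcl2l10, which are 8 of the 55214 genes joined across the cultures. They were listed by name, and no threshold on a measured value was applied. Ba/F3 is an established mouse haematopoietic line that needs the cytokine interleukin-3 (IL-3) to survive. The study concerns IgA-dependent killing of tumour cells by neutrophils. Polyadenylated RNA was sequenced from 3 separate cultures of Ba/F3, for which the labels name no added gene or treatment, each kept in 0.2 ng/mL recombinant murine IL-3 and RPMI medium with 10% serum from fetal calves. The cultures form 1 group, so there is no treated or mutant arm, and every sample had the cytokine.

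Proteins of the BCL2 family decide whether the outer membrane of the mitochondrion stays closed. BAX and BAK open it, the survival proteins bind and restrain them, and the BH3-only proteins, which carry a single short family motif, occupy the survival proteins or activate BAX and BAK directly. MCL1 is a short-lived protein, BCL2 and BCL-XL (from Bcl2l1) are long-lived, and A1 (from the Bcl2a1 genes) is short-lived and best known from white blood cells. In cells that depend on IL-3, loss of the cytokine leads to death by this route.

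The A1 genes are near-identical copies on mouse chromosome 9, and their sequences are shown first because they limit what can be counted. The coding sequences of Bcl2a1a, Bcl2a1b and Bcl2a1d are each 519 bases long in the GENCODE M21 annotation. Bcl2a1a and Bcl2a1b differ at 11 bases (97.9% identity), Bcl2a1a and Bcl2a1d at 7 (98.7%), and Bcl2a1b and Bcl2a1d at 6 (98.8%). All 3 vary together at 12 coding positions, and 6 of these lie within the first 90 coding bases. Those bases are given below 5′ to 3′ from the start codon, and capitals mark the positions at which the copies differ. They lie in GRCm38 at chr9:88957051-88957140 on the plus strand for Bcl2a1a, chr9:89199360-89199449 on the plus strand for Bcl2a1b, and chr9:88731630-88731719 on the minus strand for Bcl2a1d.
Bcl2a1a: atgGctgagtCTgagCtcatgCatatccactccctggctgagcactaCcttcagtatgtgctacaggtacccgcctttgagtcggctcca
Bcl2a1b: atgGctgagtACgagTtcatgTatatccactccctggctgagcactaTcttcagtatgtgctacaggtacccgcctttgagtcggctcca
Bcl2a1d: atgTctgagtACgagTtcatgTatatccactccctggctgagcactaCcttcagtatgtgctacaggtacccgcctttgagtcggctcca
Reads were 50 bases long, and a read that covers no differing position names no single A1 gene.

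Undoing the log of the deposited values gave whole reads, with totals of 32044889, 33880292 and 37180883 in cultures 1, 2 and 3. The column of culture 3 stands in another row order than those of cultures 1 and 2, and it was joined to them by gene before any value was read. Levels are given as TPM, which divides reads by the summed exon length of a gene and scales each culture to 1000000. They are means ± SD over the cultures (n = 3). CPM divides reads by the total of a culture, scaled likewise, and leaves out length. A gene counted as detected had at least 1 CPM in all 3 cultures. Reads from mitochondrial genes made up 1.68%, 1.31% and 1.04% of all reads in cultures 1, 2 and 3. Of 6 B lineage markers 2 were detected, and Ebf1 and Ms4a1 had no read in any culture, so the summed level of 48.5 to 53.4 TPM came mainly from Cd79b. Detected markers numbered 4 of 5 for erythroid cells (766.7 to 876 TPM in sum), 3 of 7 for neutrophils and monocytes (155 to 161 TPM) and 1 of 5 for mast cells and basophils (386 to 410.2 TPM). None of 5 T and NK markers (0.0822 to 0.260 TPM) and none of 5 fibroblast markers (0.404 to 0.554 TPM) was detected. In bulk RNA, fewer cells with a transcript and less of it per cell cannot be told apart.

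Of the 8 survival genes 6 were detected, beside 19.9% of all genes and 45.9% of protein-coding genes. Mcl1 stood highest, followed by Bcl2, Bcl2l1, Bcl2l2, Bcl2a1b and Bcl2a1a. Bcl2a1d had 4, 0 and 2 reads in cultures 1, 2 and 3, and Bcl2l10 had none. The 8 genes summed to 742, 729.5 and 710.4 TPM in cultures 1, 2 and 3 (727 ± 16.1). Of that sum, Mcl1 supplied 66.9 ± 0.757% and Bcl2 16.9 ± 0.450%, which is 83.8 ± 0.406% together.

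**Figure D1:**
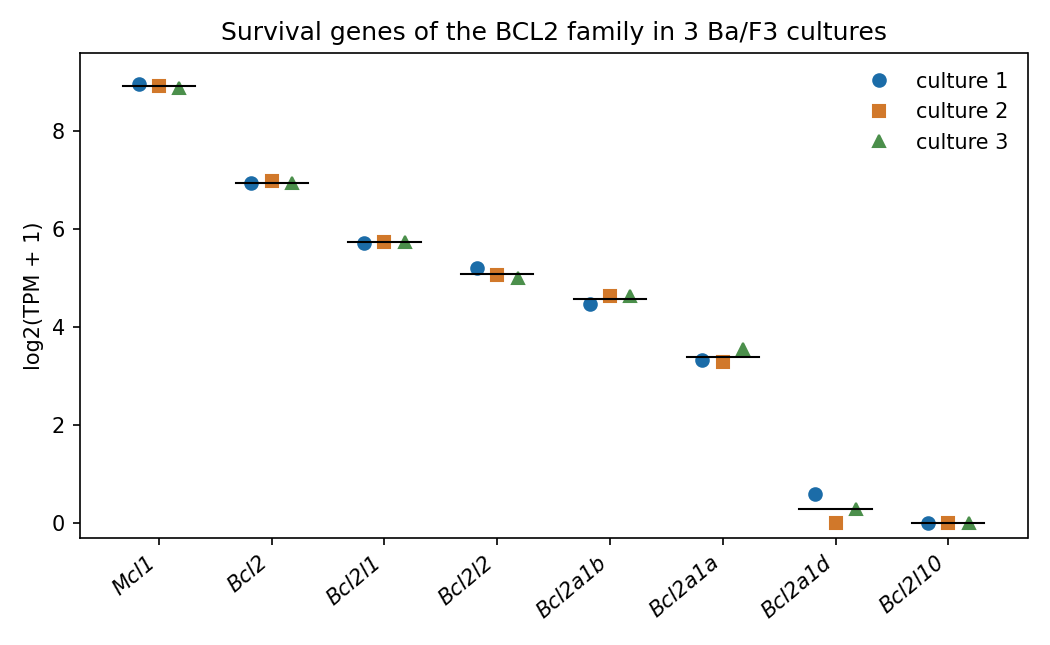
Level of each survival gene, as log2(TPM + 1), in each of the 3 Ba/F3 cultures (points), with the mean as a bar. Mcl1 lies near 486 TPM, Bcl2 near 123 and Bcl2l1 near 52.1, the cultures lie close together for these genes, and Bcl2l10 is at 0 in all 3.

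Mcl1 (ENSMUSG00000038612, chromosome 3, 95658788 to 95663176, plus strand) encodes the survival protein that many blood cells cannot do without. It had 15785, 16105 and 17298 reads in cultures 1, 2 and 3, or 503, 486 and 470.4 TPM. Its mean of 486 ± 16.1 TPM was at the 97.7 percentile of detected genes. The TPM was highest in culture 1 and lowest in culture 3, and all 3 cultures were above every other survival gene. Mcl1 was 3.96 ± 0.149 times Bcl2 and 9.34 ± 0.428 times Bcl2l1 in TPM.

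Bcl2 (ENSMUSG00000057329, chromosome 1, 106538178 to 106714274, minus strand) is the founding member, first known from lymphoma translocations. With 10236, 11143 and 11964 reads it reached 122, 126 and 121 TPM, a mean of 123 ± 2.36 at the 87.3 percentile of detected genes. Culture 2 was highest, and the cultures lay within 1.03 times of each other in CPM. The ratio of Bcl2 to Bcl2l1 was 2.37, 2.40 and 2.30 in cultures 1, 2 and 3.

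Bcl2l1 (ENSMUSG00000007659, chromosome 2, 152780668 to 152831728, minus strand) gives the survival protein BCL-XL and, by another splice site, the shorter death-promoting BCL-XS. Counts per gene do not separate these forms. It had 2166, 2322 and 2601 reads, or 51.4, 52.3 and 52.7 TPM (52.1 ± 0.670, the 67.7 percentile). The 3 cultures were nearly level.

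Bcl2l2 (ENSMUSG00000089682, chromosome 14, 54883377 to 54888234, plus strand) encodes BCL-W, a relative known for its need in sperm formation. Its reads numbered 1481, 1404 and 1490, which is 36.1, 32.5 and 31.0 TPM (33.2 ± 2.62, the 53.4 percentile). Culture 1 was highest. Bcl2l1 exceeded Bcl2l2 by 1.42, 1.61 and 1.70 times in cultures 1, 2 and 3, and their ranges did not overlap.

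The A1 genes were the lowest of the detected members in TPM. Bcl2a1b (ENSMUSG00000089929, chromosome 9, 89199209 to 89207827, plus strand) had 159, 189 and 211 reads, or 21.2, 23.9 and 24.0 TPM (23.0 ± 1.60, the 40.8 percentile). Bcl2a1a (ENSMUSG00000102037, chromosome 9, 88956900 to 88962419, plus strand) had 68, 70 and 94 reads, or 9.04, 8.82 and 10.7 TPM (9.51 ± 1.01, the 19.0 percentile). Bcl2a1b was above Bcl2a1a in every culture, by 2.34, 2.71 and 2.25 times in TPM.

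Bcl2a1d (ENSMUSG00000099974, chromosome 9, 88723285 to 88731914, minus strand) had 4, 0 and 2 reads. That is 0.125, 0 and 0.0538 CPM, and over the pooled cultures 0.0582 CPM with an exact Poisson 95% interval of 0.0214 to 0.127. The copy was thus close to the limit of this depth, where 3 reads make 0.0936, 0.0885 and 0.0807 CPM in cultures 1, 2 and 3. Summed, the A1 genes reached 30.7, 32.7 and 34.9 TPM (32.8 ± 2.08), which was 4.51 ± 0.387% of the survival total, beside 4.56 ± 0.266% for Bcl2l2. The relative Bcl2a1c, outside the set, had 2, 1 and 1 reads.

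Bcl2l10 (ENSMUSG00000032191, chromosome 9, 75347758 to 75351632, plus strand) encodes a relative also named Boo or Diva, known from the ovary. It had 0 reads in each culture, and all of its 50-base windows are found in no other gene. The pooled exact Poisson 95% interval allows up to 0.0358 CPM. Intervals and limits cover counting error only, since they treat reads as Poisson counts and leave out variation between cultures. The reads also carry no molecular identifiers, so duplicate reads of the same molecule were not told apart.

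Set in order of TPM, the ranges over the 3 cultures did not overlap between any neighbours from Mcl1 down to Bcl2a1d. The narrowest step was Bcl2l2 over Bcl2a1b, at 1.45 ± 0.221 times, higher in 3 of 3 cultures. Bcl2a1d and Bcl2l10 overlapped at 0. An exact sign-flip test over 3 cultures cannot give a p below 0.25, so no p is given for the steps.

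How far the cultures differed from each other was compared with counting noise. Of the 6 survival genes with a mean of at least 10 reads, 2 differed beyond it in a chi-square test for heterogeneity of Poisson counts, adjusted by Benjamini-Hochberg over all genes tested, beside 32.7% of the 13142 genes tested. Mcl1 differed with an adjusted p of 9.86e-06 in this chi-square test, at a ratio of highest to lowest culture of 1.06 in CPM. For Bcl2l2 the adjusted p of the same chi-square test was 0.00143 and the ratio 1.15. In both genes culture 1 was highest and culture 3 lowest, which is also the order of the mitochondrial read share. Whether that share has a part in the differences was not tested.

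Without culture 1 neither gene passed: the chi-square test then gave adjusted p-values of 0.221 for Mcl1 and 0.660 for Bcl2l2, and 11.1% of all genes tested passed. The other members missed the threshold of 0.05 in the chi-square test, with adjusted p-values of 0.177 for Bcl2, 0.638 for Bcl2l1, 0.559 for Bcl2a1b and 0.525 for Bcl2a1a. Bcl2 passed when cultures were scaled by trimmed mean of M values (adjusted p = 0.0215, chi-square test) or by median of ratios (adjusted p = 0.0133), at a ratio of highest to lowest culture of 1.04 and 1.05. Under these scalings, in the same order, Mcl1 came closer to the threshold (adjusted p = 0.0314 and 0.0161, chi-square test), at ratios of 1.03 and 1.04. So did Bcl2l2 (adjusted p = 0.0109 and 0.00978, chi-square test), at a ratio of 1.13 under either. Depth sets how small a difference can be seen. Among genes with a mean of at least 1000 reads, the class of Mcl1, Bcl2, Bcl2l1 and Bcl2l2, 45.0% passed, and among those with 50 to 300 reads, the class of Bcl2a1a and Bcl2a1b, 23.4% passed.

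**Figure D2:**
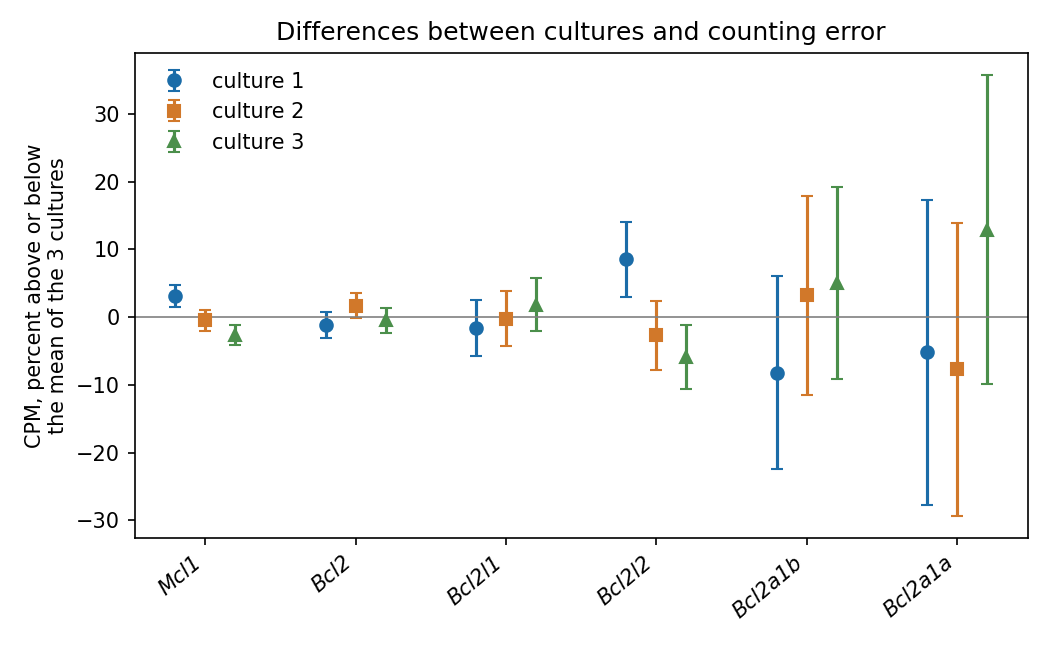
CPM of each detected survival gene in each culture, in percent above or below the mean of the 3 cultures, with bars for the 95% counting interval taken from the square root of the reads. Mcl1 lies 3.11% above its mean in culture 1 and 2.61% below it in culture 3, while the wide bars of Bcl2a1a and Bcl2a1b span 0 in every culture.

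The spread of Mcl1 was not unusual for its level. Its coefficient of variation over the cultures was 2.89%, at the 46.7 percentile of 657 genes within 2 times of its level, and the median over detected genes was 4.48%. Bcl2l2 varied by 7.57%, the 81.4 percentile of 4375 such genes. Bcl2 and Bcl2l1 varied least, by 1.52% and 1.73%, at the 17.2 and 18.0 percentiles of the genes at their levels.

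Near-identical copies and overlapping gene models bear on these counts. Every 50-base window of the longest transcript of Mcl1 and Bcl2l1 is found in no transcript of another gene, as are 93.3% of those of Bcl2 and 87.2% of those of Bcl2l2. For the A1 genes the share is 31.0% (239 of 770 windows) in Bcl2a1a, 20.8% (160 of 768) in Bcl2a1b and 20.5% (167 of 814) in Bcl2a1d. Bcl2a1a shares 521 windows with Bcl2a1d and 316 with Bcl2a1b, so reads from these copies can be split between them or lost.

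Overlapping gene models add to this. Gm29094, a protein-coding gene model on the strand of Bcl2a1b, covers 49.1% of the exon positions of Bcl2a1b, and Gm20521 covers 13.3% of those of Bcl2l2. Neither model had a read in any culture. Among all protein-coding genes, 185 of the 215 with at least 90% of their exon positions shared on the same strand had no read (86.0%). The count was 7116 of the 20369 with under 1% shared (34.9%). In the class from 1 to 90% shared, which holds Bcl2a1b and Bcl2l2, it was 311 of 1381 (22.5%). On the opposite strand, the antisense gene D630008O14Rik covers 6.09% of the exon positions of Bcl2 and had 0, 1 and 0 reads, and Gm10634, antisense to Bcl2a1d, had 1, 2 and 0 reads. Within the Bcl2 gene, Mir3473f had 0, 1 and 0 reads and Gm37053 had 2, 1 and 2. How the counting treated reads with several matches or shared positions is not given in the sources used here.

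If such reads were left out, a fair length is the number of unique windows. This alternative was chosen after seeing the data. It takes the TPM made with the length of the longest transcript and divides it by the unique share of windows, with no new scaling to the total. On that scale Bcl2a1b stood at 75.6, 85.0 and 85.4 in cultures 1, 2 and 3 (82.0 ± 5.58), against 17.1 ± 1.16 TPM by longest transcript. Bcl2a1a reached 22.7 ± 2.39, against 7.06 ± 0.741 TPM.

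Bcl2l1, all of whose windows are unique, was at 69.1 ± 0.783 on either scale. It lay below Bcl2a1b in all 3 cultures per unique window and above it by longest transcript. Mcl1, likewise unique throughout, was at 361 ± 12.5 on either scale. Its share of the survival total was 52.1% per unique window, against 60.2% by longest transcript. Bcl2 was at 125 ± 2.38 per unique window, against 116 ± 2.22 TPM. The place of Bcl2a1b thus differed between the scales, and those of Mcl1 and Bcl2 were the same on both.

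**Figure D3:**
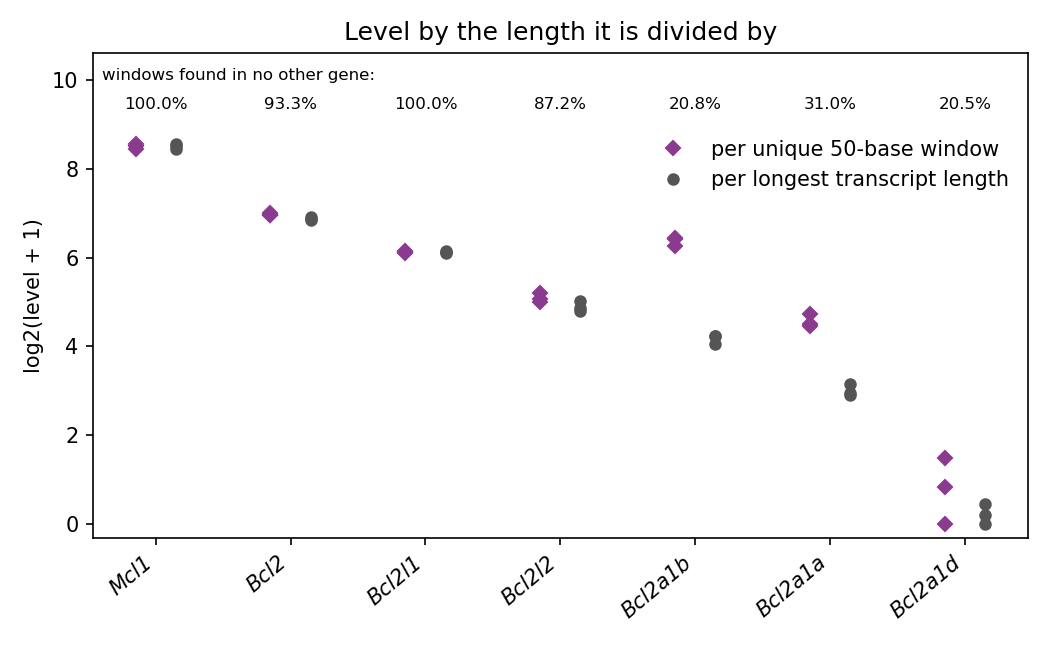
Level of each survival gene with reads, as log2(level + 1), per unique 50-base window (diamonds) and per length of the longest transcript (TPM, circles), 1 point per culture. The share of windows found in no other gene stands above each gene. Bcl2a1b lies at 82.0 on the unique-window scale, above Bcl2l1, against 17.1 by longest transcript, and Mcl1 and Bcl2 keep the first places.

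The stretches upstream of the RefSeq starts (GRCm38.p6) vary in base composition among the members. They are shown for Mcl1 and Bcl2, the highest members by TPM, and for Bcl2a1a. Capitals mark the GC box letters GGGCGG and the half-site TGACG of cyclic AMP response elements, each on either strand. The 250 bases are chr3:95658471-95658720 on the plus strand for Mcl1, chr1:106714291-106714540 on the minus strand for Bcl2, and chr9:88956670-88956919 on the plus strand for Bcl2a1a, and each ends at the base before the start.
Mcl1: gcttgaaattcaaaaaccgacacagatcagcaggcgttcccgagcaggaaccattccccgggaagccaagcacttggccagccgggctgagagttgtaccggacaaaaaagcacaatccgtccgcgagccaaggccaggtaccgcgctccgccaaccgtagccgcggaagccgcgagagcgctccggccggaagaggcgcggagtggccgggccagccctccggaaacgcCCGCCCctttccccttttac
Bcl2: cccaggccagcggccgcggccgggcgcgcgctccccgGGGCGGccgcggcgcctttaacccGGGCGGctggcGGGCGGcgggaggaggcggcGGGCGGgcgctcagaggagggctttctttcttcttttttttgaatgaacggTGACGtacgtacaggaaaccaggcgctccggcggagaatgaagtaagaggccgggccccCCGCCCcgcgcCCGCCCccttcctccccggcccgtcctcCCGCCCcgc
Bcl2a1a: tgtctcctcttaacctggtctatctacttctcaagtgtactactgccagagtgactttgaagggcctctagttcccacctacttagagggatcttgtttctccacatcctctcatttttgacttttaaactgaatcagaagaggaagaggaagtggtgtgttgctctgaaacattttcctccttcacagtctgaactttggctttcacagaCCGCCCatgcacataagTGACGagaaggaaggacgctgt
The Bcl2 stretch has 74.8% G and C and 36 CpG, with 7 GC boxes, and the Mcl1 stretch has 64.4%, 26 CpG and 1 GC box. The median over 32851 mouse promoters is 52.4% and 6 CpG, and 32.7% of them hold a GC box. Bcl2a1a has 45.2% and 3 CpG.

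Each A1 stretch holds 1 GC box and 1 TGACG at the same distance from each other, and 17.8% of all promoters hold TGACG. Aligned, Bcl2a1a and Bcl2a1b are 99.5% identical over 206 bases, Bcl2a1a and Bcl2a1d 97.5% over 244, and Bcl2a1b and Bcl2a1d 99.0% over 200. The starts of Bcl2a1b and Bcl2a1d are offset, which leaves 100 gap positions in their alignment, and 198 of the 200 aligned bases are the same. Their reads numbered 559 and 6 over the 3 cultures. The Bcl2l2 stretch has 66.0% G and C, 9 CpG and 1 GC box. The 3 RefSeq starts of Bcl2l1 have 48.4%, 53.2% and 47.6% G and C, with 0, 11 and 12 CpG and no GC box. Of these starts, 1 has a match to the kappaB motif, which 3.90% of promoters hold. None of the members' stretches holds the STAT letters TTCNNNGAA (7.02% of promoters), TGACGTCA (1.55%), TATAAA (12.4%), CCAAT (33.8%) or a CArG box (1.47%), on either strand. A match in letters does not show that a factor binds. No promoter entry was matched for Bcl2l10.

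The partners of the survival proteins were read beside them. Of the 8 BH3-only genes 5 were detected, beside 45.9% of protein-coding genes. By the chi-square test 3 of these 5 differed between cultures, beside 32.7% of all genes tested. Among genes with a mean of at least 1000 reads the share was 45.0%, and depth was not matched. Bid, whose protein is activated by caspase cleavage, had 121, 125 and 129 TPM in cultures 1, 2 and 3 (125 ± 4.20), a level like that of Bcl2. It made up 57.6 ± 2.58% of the BH3-only sum. Bbc3, which encodes PUMA, a target of p53, had 45.5, 47.2 and 65.3 TPM (52.7 ± 11.0). Culture 3 stood above the others by up to 1.45 times (adjusted p = 6.02e-22, chi-square test of Poisson heterogeneity), the widest ratio in the BH3-only list.

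Bad, whose protein is held inactive by kinases downstream of growth factors, had 24.97, 27.2 and 29.0 TPM (27.0 ± 2.01). Like Bid and Bbc3 it was highest in culture 3. The adjusted p-values of the chi-square test were 0.00638 for Bid and 0.0439 for Bad. Bcl2l11, which encodes BIM, a main BH3-only protein of cytokine withdrawal, was low at 10.8 ± 0.230 TPM, and Bmf was at 2.01 ± 0.0544 TPM. Neither passed the chi-square test (adjusted p = 0.656 and 0.966). Pmaip1, which encodes NOXA, a partner of MCL1 and A1, had 0 reads in every culture, as had Bik and Hrk. In these 3 genes, at least 99.7% of the windows are found in no other gene.

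Both main effectors were above Bcl2 in TPM. Bak1 had 278, 275 and 271 TPM (275 ± 3.38) and Bax 152, 159 and 160.1 TPM (157 ± 4.11). Bok, the other effector, had 0 reads. Neither Bak1 nor Bax passed the chi-square test (adjusted p = 0.778 and 0.245). The survival genes summed to 1.68 ± 0.0393 times the effectors in TPM, 1.61 times with the length of the longest transcript and 1.56 times per unique window. With no length correction the ratio was 3.52, and Bcl2 (323 CPM) then lay above Bak1 (190.0 CPM) and Bax (71.1 CPM). This comparison of settings was added after seeing the data.

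Survival genes summed to 742, 729.5 and 710.4 TPM in cultures 1, 2 and 3, against 204, 212 and 237 TPM for BH3-only genes. The ratio of both sums was 3.63, 3.44 and 3.0 (3.36 ± 0.324). It was lowest in culture 3, where the survival sum was lowest and the BH3-only sum highest. Without Mcl1 the ratio was 1.17, 1.15 and 1.01 (1.11 ± 0.0852). The ratio of sums was 2.61 with the length of the longest transcript, 4.44 with no length correction and 2.53 per unique window. RNA levels do not give the amounts of these proteins.

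**Figure D4:**
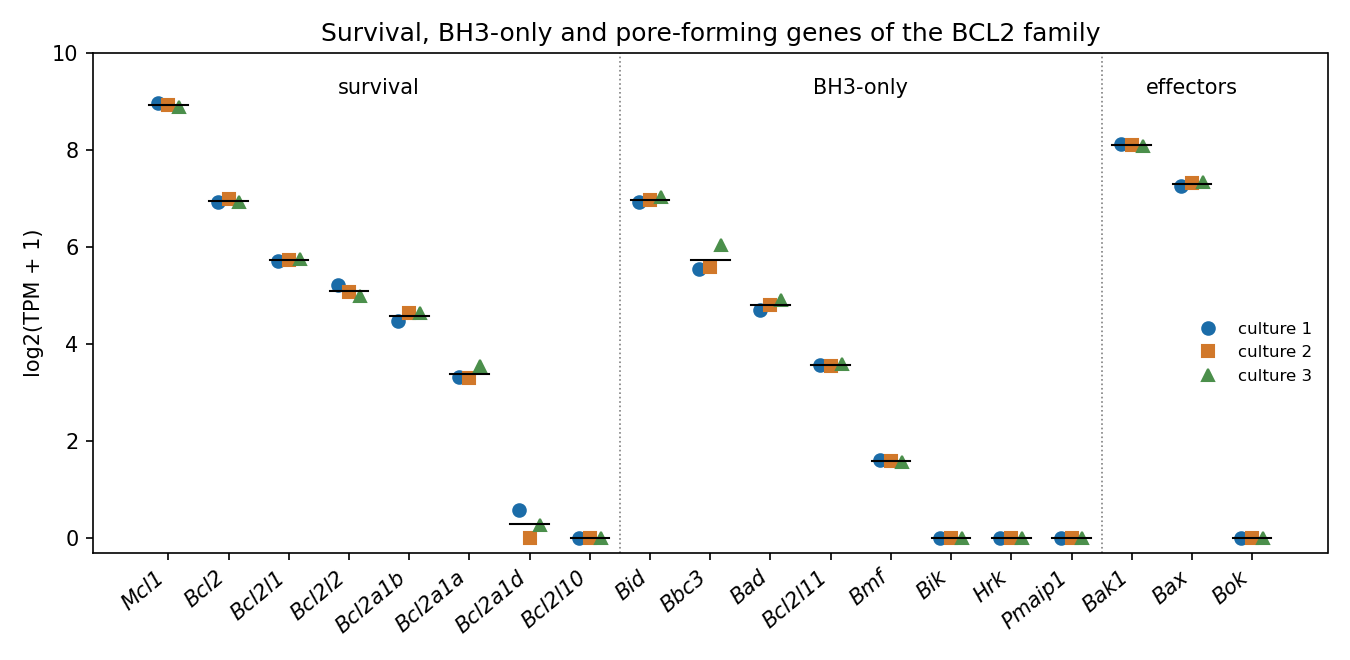
Level, as log2(TPM + 1), of the survival, BH3-only and effector genes in each of the 3 cultures (points), with means as bars. Mcl1 lies above every other gene shown, Bak1 (275 TPM) and Bax (157) lie above Bcl2 (123), and Bcl2l10, Bik, Hrk, Pmaip1 and Bok are at 0.

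Genes that act on the survival proteins were read next. Of 12 genes of MCL1 turnover 9 were detected, beside 45.9% of protein-coding genes. Of these 9, 4 differed between cultures by the chi-square test, beside 32.7% of all genes tested. Among genes with a mean of at least 1000 reads the share was 45.0%. Tpt1, whose protein binds and steadies MCL1, had 1257 ± 40.7 TPM, the kinase gene Gsk3a 148 ± 5.03 and the ubiquitin ligase gene Huwe1, whose protein marks MCL1 for breakdown, 114 ± 7.33. Usp13 and Bag3 had no read. Of 12 genes of the IL-3 signal route 11 were detected, beside the same 45.9%. All 12 were tested and 10 of them differed between cultures, beside the same 32.7% and 45.0%. Depth was not matched in this comparison, and Pim1 had 38595, 36058 and 41114 reads in cultures 1, 2 and 3. The kinase gene Pim1 stood at 1164 ± 75.0 TPM, the receptor chain gene Csf2rb2 at 496 ± 17.8 and Pim2 at 379 ± 7.0.

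All 5 NF-kappaB subunit genes, whose products are known to drive A1, were detected, beside 45.9% of protein-coding genes. None of the 5 differed between cultures by the chi-square test, beside 32.7% of all genes tested. At an unadjusted p under 0.05 the count was 1, Nfkb2. Rela led with 72.1 ± 2.56 TPM, followed by Nfkb1 with 31.1 ± 0.832 and Nfkb2 with 29.2 ± 1.22. All 9 genes downstream of the mitochondrion were detected, beside the same 45.9%. Of these 9, 4 differed, beside 32.7% of all genes tested and 45.0% of those with a mean of at least 1000 reads. In this list, Vdac2 was at 149.5 ± 2.90 TPM and the survivin gene Birc5 at 65.0 ± 2.79. Of 8 further BCL2 relatives 6 were detected, again beside 45.9%. Of these 6, 3 differed, beside the same 32.7% and 45.0%. The highest were the mitophagy receptor genes Bnip3 at 1338 ± 36.6 TPM and Bnip3l at 271 ± 7.99, and the autophagy gene Becn1 at 64.8 ± 3.02.

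For each detected member, the genes of these lists nearest in level were sought by the mean absolute difference of log2(TPM + 1) over the 3 cultures. Mcl1 was nearest to Csf2rb2 (0.03), then to Pim2 (0.36). Bcl2 was nearest to Bid (0.03) and Huwe1 (0.11), and Bcl2l1 to March5 (0.02), a ubiquitin ligase gene of the mitochondrial surface, and Apaf1 (0.07), the gene of the apoptosome scaffold. Bcl2l2 lay beside Nfkb1 (0.10), Bcl2a1b beside Fbxw7 (0.08) and Casp9 (0.13), and Bcl2a1a beside Bcl2l11 (0.18) and Diablo (0.59). These are likenesses of level in TPM by summed exon length, in 3 samples of 1 group.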

How the data were processed

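Per the labels and the series' design text, the authors sequenced 50-base single-end reads from polyadenylated, strand-marked libraries of 3 Ba/F3 cultures, aligned them to GRCm38 with HISAT2 and counted them with GenSum. Not given in the sources used here are versions, the strand setting, the annotation release and the treatment of reads with several matches. The authors deposited log2 values, which are log2(reads per 10000000 + 1). Undoing the log gave whole reads for 100% of entries within a tolerance of 0.01.

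Identifier and symbol pointed to 1 gene in 0 of 23001 rows with reads: cultures 1 and 2 follow the identifier, culture 3 the symbol and coordinates. Culture 3 was joined through GENCODE M21 (54907 rows by coordinates, 354 by symbol, 225 unmatched). The deposited unit was log2 and not counts, so tests used the recovered reads.

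CPM used column sums and TPM the union exon length. The chi-square test of Poisson heterogeneity took genes with a mean of at least 10 reads, with Benjamini-Hochberg adjustment over all of them and a threshold of 0.05. It compares these libraries. On simulated reads with counting noise only, it called 6 of 12942 unchanged genes and 32 of 50 genes changed 1.2 times in 1 culture. The simulation held no other variation between cultures, so it cannot show how the test behaves where such variation exists. Windows of 50 bases were compared with transcripts of other genes on either strand. Promoter and motif searches used 250 bases upstream of RefSeq starts, and 7 of the 8 members matched. Python 3.11.15, numpy 2.4.6, pandas 2.3.3 and scipy 1.17.1 were used.

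The members and lists were chosen with earlier results of these data known. By rule, all members, all BH3-only and effector genes, the 3 highest genes of each other list, the 2 nearest genes of each detected member and overlapping genes are named. Some genes that this rule names are not reported here. For the marker lists, counts, summed levels and single genes are given. Alternatives covered detection thresholds, gene length, scaling, read minimums, pseudocounts, summed A1 reads, unjoined rows and each culture left out.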

Additional observations from a re-analysis of the deposited data

How the results depend on the processing

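The count of members that differ between cultures was 2, with a range of 0 to 2 when each culture was left out and 0 without culture 1. It was 3 under either other scaling, where Bcl2 joined. The other read minimums, and the A1 reads summed (adjusted p = 0.446, chi-square test), left the count at 2. The summed survival over BH3-only ratio, 3.36, became 2.61 with the longest transcript, 4.44 with no length correction and 2.53 per unique window, and ranged from 3.22 to 3.54 with a culture left out. The Mcl1 share of the survival total, 66.9%, became 60.2%, 51.9% and 52.1% under these 3 length choices, and ranged from 66.4 to 67.2% with a culture left out. In the order of the members, 3 changed place per unique window and 0 under the other alternatives run. Detected members numbered 6, or 4 at a threshold of 5 CPM. Of 12 nearest genes, 12 stayed with a pseudocount of 0.1 and 11 with 5. Other length choices were not run for the nearest genes, so these counts do not show how the pairs depend on length. Read by the rows as deposited, Bcl2 would average 128.5 TPM and Mcl1 492 TPM. No paired analysis was possible because the samples form 1 group, so no groups share replicate numbers. Depth limits what can be said of Bcl2a1d and Bcl2l10, and with 3 cultures of 1 group no condition can be compared.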

Other observations

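The stretch of chromosome 9 from Bcl2a1d to Bcl2a1b spans 484.5 kb in GRCm38 and holds 21 annotated genes, 5 of them protein-coding. Of these 21 genes, 2 were detected, Bcl2a1a and Bcl2a1b, beside 19.9% of all genes. Trim43c, which lies between Bcl2a1d and Bcl2a1a, and Trim43b, between Bcl2a1a and Bcl2a1b, had 0 reads in each culture. The neighbours at both ends belong to the folate pathway. Mthfsl, next to Bcl2a1d, had 81, 79 and 116 reads (2.53, 2.33 and 3.12 CPM), and Mthfs, next to Bcl2a1b, had 56, 53 and 70 reads (1.75, 1.56 and 1.88 CPM). These neighbours were chosen after their values were seen.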
